A study of Caenorhabditis elegans with 2 samples.

Results

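The genes described are cebp-2, cebp-1, zip-2, zip-4 and zip-5, which encode basic leucine zipper (bZIP) transcription factors of the nematode Caenorhabditis elegans. They are 5 of 19973 protein-coding genes of the nuclear chromosomes. They are also 5 of the 30 genes of a bZIP list that was drawn up by name and not from domain annotation. The genes were chosen by name as zip-5 and its C/EBP-type relatives, with peak positions and signal values of these data in view, among them the peak at the start of cebp-2. Their peaks are therefore given as a description and not tested. For each gene, summits were read from every peak list in a promoter window that reached 1000 bp upstream and 200 bp downstream from the outermost start in the annotation, in the rest of the gene body, and at the nearest place outside. Trans-splicing is common in nematodes, and transcription may therefore begin upstream of an annotated start.

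A bZIP factor binds DNA with a basic region and pairs through an adjoining leucine zipper, with itself or with another bZIP protein, so the genes for possible partners are of interest beside those for the factor itself. C/EBP proteins are the CCAAT/enhancer-binding branch of this family. In the worm, ZIP-2 and CEBP-2 act in a surveillance response that switches on defence genes such as irg-1 when translation is blocked by a bacterial toxin. CEBP-1 acts downstream of the kinase DLK-1 in the regrowth of cut axons.

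ZIP-5 was immunoprecipitated with an anti-GFP antibody from strain OP544, whose genotype is unc-119(tm4063) III with the transgene wgIs544, and the recovered DNA was sequenced (ChIP-seq). The labels' description names the anti-GFP antibody, whereas their antibody field gives zip-5, and if an antibody against ZIP-5 itself had been used, untagged ZIP-5 could also have been recovered. The transgene gives ZIP-5 a GFP-FLAG tag at its C terminus. Hermaphrodites were collected whole as late embryos, 4 hours after synchronization by egg bleaching, in 2 biological replicates that form the 1 group, so no comparison between groups was possible. Every library carried the same transgene and the same unc-119 allele. Because whole embryos were used, the cells in which a site was occupied are unknown, and the tagged ZIP-5 was made beside the animals' own zip-5 gene.

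The authors deposited 1 list of peaks and background regions per replicate, 1 called on both alignments together, and an optimal set selected by the irreproducible discovery rate. That rate rests on how alike the replicates rank their peaks. In build ce11 these held 6253 entries for replicate 1, 6945 for replicate 2, 4380 for both together and 746 in the optimal set, of which 730 were nuclear. The first 3 are relaxed lists, in which most entries are weak. The signal value is the authors' own peak score with no stated scale, and it was compared within a list, except where ratios or differences between lists are named as such. Its median was 28.8 for replicate 1, 30.5 for replicate 2, 58.5 for both together and 161.1 in the optimal set. The weakest optimal peak had a signal of 95.2, and the strongest entry called on both together that stayed outside the set had 95.1, at rank 747. The optimal set was thus the 746 strongest entries of the list called on both together. Membership followed that signal, and does not by itself show that the replicates agreed at a given peak. Read depth is unknown, because no list carries counts.

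In the optimal set, cebp-2 alone of the 5 genes had a summit in its promoter window, and zip-2 alone had one in its body. Over all protein-coding genes, 3.32% had an optimal summit in the promoter window and 0.886% in the body. In the list called on both together, 3 of the 5 had a promoter summit, cebp-2, cebp-1 and zip-4, against 10.8% of all genes. In that list zip-2 and zip-5 had a body summit, against 7.33% of all genes. The replicate 1 list gave a promoter summit to cebp-2 and zip-4, against 12.6% of all genes, and a body summit to zip-2, against 11.1%. The replicate 2 list gave a promoter summit to cebp-2 and cebp-1, against 13.6% of all genes, and a body summit to zip-2 and zip-5, against 12.6%. Only cebp-2 had promoter peaks that overlapped between both replicate lists, as 7.18% of all genes did. Each of the 5 genes had a summit in its window or body in at least 1 list, as 32.5% of all genes did. Of the 5, cebp-2 and zip-2 had one in all 4 lists, against 4.16% of all genes. Nothing is read from these shares, because the genes were chosen with these lists known.

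**Figure D1:**
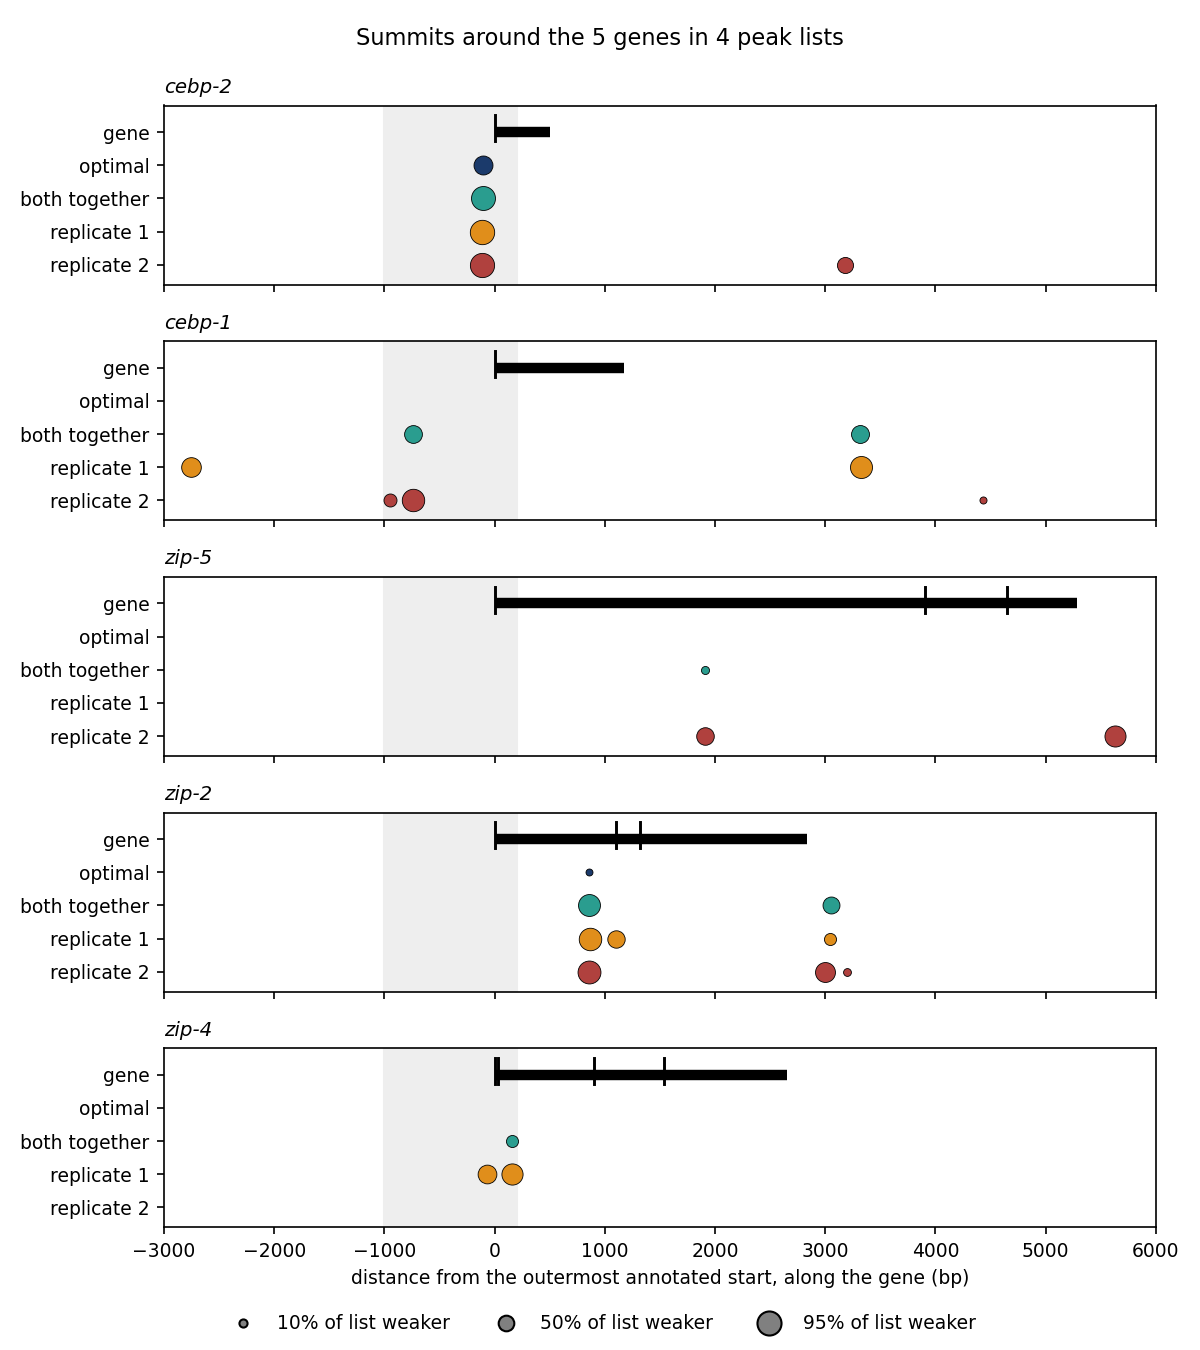
Summits by distance from the outermost annotated start (x axis, bp along the gene) around the 5 genes in each of the 4 lists; black bars are the genes, ticks their annotated transcript starts, grey the promoter window, and larger points have a larger share of weaker entries in their list. The cebp-2 summits stack at −108 to −114 bp in all 4 lists and the zip-2 summits at 854 to 865 bp, whereas cebp-1, zip-4 and zip-5 have none in the optimal set.

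The cebp-2 gene (WBGene00016754) is short, 503 bp on the plus strand of chromosome I at 6253082 to 6253584 in build ce11, with 1 annotated transcript. Its optimal peak ran from 6252752 to 6253195 with the summit at 6252974, which is 108 bp upstream of the start. The signal was 207.6 in the optimal set and in the list called on both together, 111.5 in replicate 1 and 97.1 in replicate 2. This peak stood at rank 240 of the optimal set, above its median, with 67.8% of the set weaker. Within the list called on both together 94.5% of entries were weaker, and within the replicate lists, where it ranked 211 and 283, 96.6% and 95.9% were weaker. The deposited −log10 q-value of the peak was the highest that each list reaches, 2.29 in the optimal set, 2.33 in replicate 1 and 1.71 in replicate 2. That value does not set the peak apart, since 66.1% of the optimal set, 8.6% of replicate 1 and 7.85% of replicate 2 share it. The position and the high rank by signal were found in each replicate on its own.

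The summits of the 2 replicates at cebp-2 lay 4 bp apart, at −110 and −114 bp, and their peaks overlapped over 444 bp, or 97.4% of the longer one. Among the 729 nuclear optimal peaks matched in both replicate lists, the median distance between summits was 22 bp, and 16.3% of them had summits as close as those at cebp-2. The ratio of the replicate 1 to the replicate 2 signal was 1.15 at cebp-2, against a median of 0.966 and a range from the 5th to the 95th percentile of 0.58 to 1.53. The position at cebp-2 was thus among the closer matches, and its signal ratio was an ordinary one for the set.

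The intergenic gap that holds the cebp-2 summit is 205 bp long. It separates cebp-2 from cof-2, a gene on the same strand that encodes an olfactomedin-like protein, and the peak reached beyond the gap into both genes. On the other side, 116 bp past the end of cebp-2, begins lpd-2 (WBGene00003059), named for its lipid-depleted phenotype and also on the plus strand. The cebp-2 summit fell in the promoter window of lpd-2 as well, 727 bp upstream of its start, so the peak cannot be given to cebp-2 alone by position. The next optimal summit lay 40140 bp from this one. In the relaxed lists the next summit was 27408 bp away in both together, 6869 bp in replicate 1 and 3294 bp in replicate 2, the last inside let-611. The nearest tRNA or snoRNA gene was 40150 bp away.

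Among all optimal promoter peaks, 4 peaks at 5 genes had the pair of replicate signals nearest to that of cebp-2, measured as the distance in log2 signal over the 2 libraries. The nearest, at a distance of 0.045, is shared by R10D12.13 and algn-13, a gene of N-glycosylation, on chromosome V at 13961980 to 13962423, with a signal of 112.4 in replicate 1 and 94.2 in replicate 2. The next were C49A9.10 at a distance of 0.112, ZK622.4 at 0.133 and cwc-15, a spliceosome component, at 0.141. Their summits lay between 215 and 541 bp upstream of the starts, farther than that of cebp-2. With 2 libraries such a likeness means only that the peaks were about equally strong in both.

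**Figure D2:**
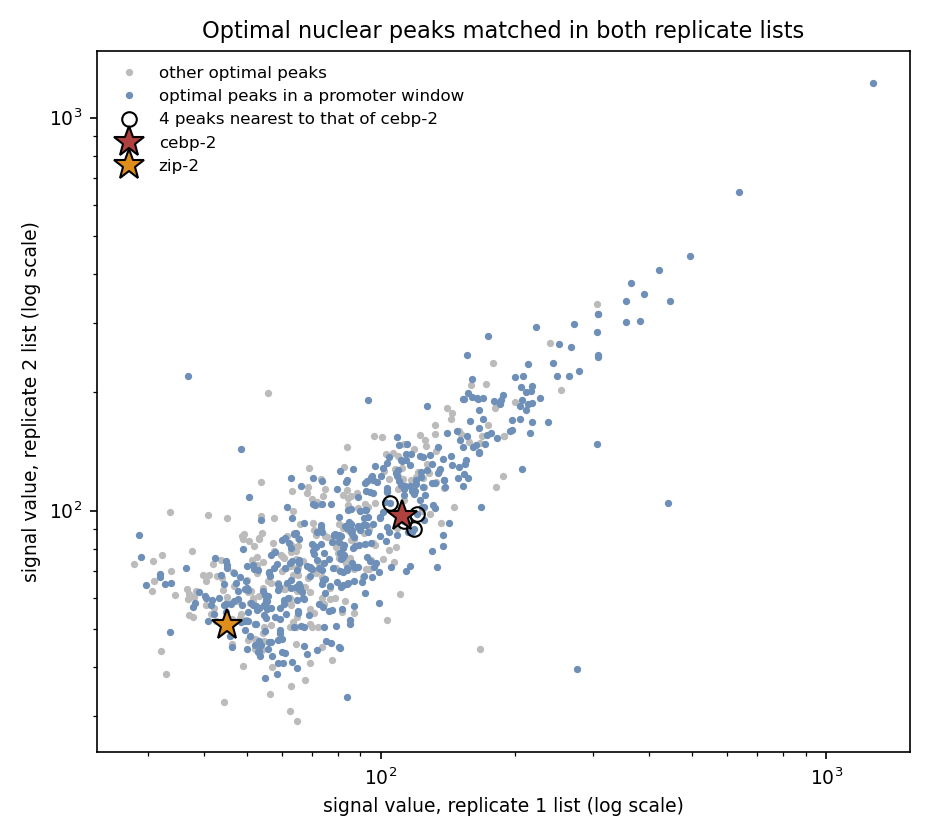
Signal in the replicate 1 list (x axis, log scale) against signal in the replicate 2 list (y axis, log scale) for the nuclear optimal peaks matched in both, with those in a promoter window in blue. The cebp-2 star sits at 111.5 and 97.1 amid the 4 ringed peaks nearest to it, and the zip-2 star at 45.1 and 51.3 lies in the weak corner of the cloud.

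The zip-2 gene (WBGene00019327) lies on the plus strand of chromosome III at 832982 to 835814, and its 3 annotated transcripts start at 3 places, the later ones 1106 and 1323 bp after the outermost. Its optimal peak, at 833614 to 834057, had the summit at 833836, which is 854 bp inside the gene. There it lay in an intron of the longest transcript and 252 bp upstream of the start of the transcript beginning at 1106 bp. Counted from the start of any transcript, 3.53% of all genes had an optimal promoter summit and zip-2 was then among them, so that 2 of the 5 genes were. The signal was 98.3 in the optimal set and in both together, 45.1 in replicate 1 and 51.3 in replicate 2. This peak was near the lower edge of the optimal set, at rank 717, with 29 peaks or 3.89% weaker. It was less weak within the relaxed lists, where 83.6% of entries were weaker in both together, 86.7% in replicate 1 and 88.9% in replicate 2. Neither replicate placed it among its strongest 746 entries, since it ranked 833 and 772. The 201 bases centred on the summit are shown because this is the only optimal peak inside one of the genes; capitals mark 2 matches to the looser C/EBP-type word TTGCNNAA, at 74.5 and 84.5 bp downstream of the summit. The sequence is the plus strand of chrIII:833736-833936 in the RefSeq copy of WBcel235.
zip-2: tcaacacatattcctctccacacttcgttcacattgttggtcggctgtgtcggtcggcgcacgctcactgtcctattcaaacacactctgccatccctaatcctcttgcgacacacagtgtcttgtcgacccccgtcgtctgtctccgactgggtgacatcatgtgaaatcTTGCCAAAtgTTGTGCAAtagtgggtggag

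The replicate summits at zip-2 lay 11 bp apart, at 865 bp in replicate 1 and 854 bp in replicate 2, and the peaks overlapped over 439 bp, or 96.3% of the longer one. Of the matched optimal peaks, 32.6% had summits as close. The ratio of replicate 1 to replicate 2 signal was 0.88, close to the median of 0.966. The −log10 q-values were 1.83 in the optimal set, 1.32 in replicate 1 and 1.43 in replicate 2, below the highest value of each list. Replicate 1 also listed a weaker summit at 1101 bp with a signal of 30.4. All 3 relaxed lists held a further entry just past the 3′ end of the gene, inside dos-3 on the opposite strand, with a signal of 61.4 in both together at 3057 bp, 26.5 in replicate 1 at 3043 bp and 35.9 in replicate 2 at 2998 bp. The intronic summit was 227 bp past the end of the snoRNA gene K02F3.15 (WBGene00220001), which lies inside zip-2 at 833435 to 833609 on the same strand. The part of that RNA gene in the result was not tested. For the other 4 genes, the closest summit in a window or body to a tRNA or snoRNA gene was that of cebp-1, at 32266 bp. Upstream, the neighbour ceeh-1, an epoxide hydrolase gene on the opposite strand, begins 704 bp away, and no list held a summit in the promoter window of zip-2.

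The cebp-1 gene (WBGene00016997) lies on the minus strand of chromosome X at 1452695 to 1453868, between W05H7.1 at 388 bp and D1005.2 at 5153 bp. Its nearest optimal summit was 74233 bp from its start. In the list called on both together a summit 742 bp upstream had a signal of 63.8 at rank 1680, stronger than 61.6% of the list. Replicate 2 gave a summit at the same base with a signal of 45.8 at rank 948, stronger than 86.3% of its list, and a second one 945 bp upstream with 28.7. The −log10 q-value of the entry at 742 bp was 0.376 in both together, where the highest is 2.29, and 1.07 in replicate 2, where it is 1.71. Replicate 1 listed nothing in the window, and its nearest summits were 2754 bp upstream, with 33.5, and 3324 bp downstream, with 40.9. The promoter entry of cebp-1 was thus found in 1 of the 2 replicates. The 201 bases around its summit are shown because they hold 3 copies of CTGCGTCT, the core of the element of the worm's ethanol and stress response, centred 76.5 bp before, 1.5 bp after and 36.5 bp after the summit; this word was chosen after the sequence was seen. Capitals mark these copies, the middle one as its reverse complement, and 1 match to both TTNCGNAA and TTGCNNAA 86.5 bp after the summit. The sequence is the minus strand of chrX:1454510-1454710 in the RefSeq copy of WBcel235.
cebp-1: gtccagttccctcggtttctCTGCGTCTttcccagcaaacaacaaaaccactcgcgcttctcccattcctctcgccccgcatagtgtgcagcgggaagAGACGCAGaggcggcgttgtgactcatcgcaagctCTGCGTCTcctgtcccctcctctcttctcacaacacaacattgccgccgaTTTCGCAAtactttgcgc

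Of all promoter windows of 1201 bp, 26 of 19973 (0.13%) held at least 3 copies of CTGCGTCT, and 0 of the 730 optimal summit windows of 201 bp did. At least 1 copy was in 8.63% of promoter windows and in 3.56% of optimal summit windows. Because the word was chosen after the cebp-1 sequence was seen, these shares do not test its presence there. The bases around the cebp-1 summit were 56.7% G and C, above the 95th percentile of the optimal summit windows, which is 53.2%. Whether base composition moves with the call in replicate 2 was not tested.

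The zip-5 gene (WBGene00007932) is the longest of the 5, 5283 bp on the plus strand of chromosome V at 13264545 to 13269827, with transcript starts at 0, 3905 and 4651 bp. It had no summit in its promoter window in any list. An intronic summit 1912 bp inside the gene had a signal of 49.6 in both together, at rank 3954 of 4380, where 9.73% of entries were weaker. The same base was a summit in replicate 2 with a signal of 32.3 at rank 2747, and replicate 1 listed none nearer than 8363 bp upstream. This was the weakest member entry of the list called on both together. Its −log10 q-value was 0.0277 there, where the highest is 2.29, and 0.203 in replicate 2. Replicate 2 also had an entry with a signal of 38.9 at 5634 bp, past the end of the gene and before uig-1. A gap of 3329 bp separates the end of zip-5 from that of uig-1. The nearest optimal summit was 48690 bp downstream of the outermost start, in the windows of C50B6.3 and nasp-2. Where the transgene carries zip-5 sequence, its reads and those of the chromosomal gene cannot be told apart in these lists. The 201 bases around the intronic summit are shown because the gene is that of the immunoprecipitated factor; capitals mark 1 match to TTGCNNAA, centred 1.5 bp after the summit, on the plus strand of chrV:13266357-13266557 in the RefSeq copy of WBcel235.
zip-5: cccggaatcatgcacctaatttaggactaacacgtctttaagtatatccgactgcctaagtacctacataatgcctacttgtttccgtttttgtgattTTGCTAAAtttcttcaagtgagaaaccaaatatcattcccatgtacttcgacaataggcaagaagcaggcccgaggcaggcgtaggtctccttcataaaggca

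Words of 3 kinds were searched on both strands in the promoter window and in the 201 bases around the summits of each gene. These were the C/EBP and PAR-type words TTGCGCAA, TTNCGNAA, TTGCNNAA and TGACGTAA, the cAMP response element TGACGTCA, and CTAGGCCA and GGGCGG, which were known from earlier results of these data. TTGCGCAA is contained in both N-bearing words, and a TTNCGNAA match can also be a TTGCNNAA match, as at cebp-1. None of the 5 genes held TTGCGCAA, TGACGTAA or CTAGGCCA in either place. Summit windows are 201 bp long and promoter windows 1201 bp, so shares of the one are not directly comparable with shares of the other. Of the optimal summit windows, 1.78% held TTGCGCAA, 0.411% held TGACGTAA and 11.6% held CTAGGCCA. Of all promoter windows 1.97%, 2.41% and 3.48% did. Most optimal summit windows thus lack CTAGGCCA, as that of cebp-2 does. A peak of nearly the strength of the cebp-2 peak that does hold CTAGGCCA is the one at cwc-15, whose signal was 206.3, with 118.5 in replicate 1 and 89.9 in replicate 2. It was picked by hand, and whether the peaks nearer to cebp-2 in replicate signal hold the word is not given here. The 101 bases around the cwc-15 summit are shown as an example, with the word in capitals, on the plus strand of chrV:16022760-16022860 in the RefSeq copy of WBcel235.
cwc-15: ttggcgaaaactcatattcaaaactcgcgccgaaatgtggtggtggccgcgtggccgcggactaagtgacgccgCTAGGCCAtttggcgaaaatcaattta

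None of the searched words lay in the 201 bases around the cebp-2 summit, which were 36.3% G and C against a median of 41.8% over the optimal summit windows. In its promoter window the only match was 1 copy of TTGCNNAA at −923 bp. The zip-2 summit lay in bases that were 51.7% G and C. Its promoter window held 3 copies of TTGCNNAA, those of cebp-1 and zip-5 held 4 each, and that of zip-4 held 1, which lay 27.5 bp before the summit of the list called on both together. TTNCGNAA was in the windows of cebp-1 and zip-5, with 3 copies each. The window of cebp-1 also held 1 TGACGTCA at −159 bp and 1 GGGCGG at −581 bp. For scale, 73.3% of all promoter windows held TTGCNNAA, 48.4% TTNCGNAA, 5.89% TGACGTCA and 19.2% GGGCGG. Of the optimal summit windows, which are shorter and so not directly comparable, 25.6%, 15.5%, 0.548% and 12.3% held them. A match here is a run of letters and not a bound site.

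The zip-4 gene (WBGene00021552) lies on the minus strand of chromosome I at 3264111 to 3266762, with 5 annotated transcripts from 4 starts. Its nearest optimal summit was 83368 bp from its start, at edc-4. In the list called on both together a summit 161 bp inside the gene, in an untranslated exon, had a signal of 53.2 at rank 3024, stronger than 31.0% of the list. Replicate 1 gave a summit 1 bp from it, at 162 bp, with a signal of 37.2 at rank 1278, and a second one 68 bp upstream of the start with 32.1. The −log10 q-value was 0.0902 at 161 bp in both together, where the highest is 2.29, and 0.649 at 162 bp in replicate 1. Replicate 2 listed none nearer than 12055 bp. The entry was thus found in 1 of the 2 replicates, as at cebp-1 but in the other one. All of these summits also fell in the promoter window of nol-58, a gene for a Nop domain protein on the opposite strand, which a gap of 331 bp separates from zip-4.

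Differences between lists assume that their signals share a scale, which no source states. For the 3 genes whose entry was listed in 1 replicate, the signal of the list called on both together exceeded that of the replicate by 18.0 at cebp-1, 16.0 at zip-4 and 17.3 at zip-5. The weakest entry of the other replicate's list was 24.0 for cebp-1 and zip-5 and 25.5 for zip-4, so each difference was a smaller number than that list records. Over the matched optimal peaks the signal in both together was close to the sum of the replicate signals, with a median ratio of 1.00 and a range from the 5th to the 95th percentile of 0.951 to 1.07. At cebp-2 the ratio was 0.995 and at zip-2 it was 1.02. All matched optimal peaks had a signal of at least 95.2 in both together. Whether the ratio holds at the weaker entries of cebp-1, zip-4 and zip-5 was not tested. Since each replicate list stops at its weakest entry, a missing entry in 1 of them does not show that the signal there was 0.

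**Figure D3:**
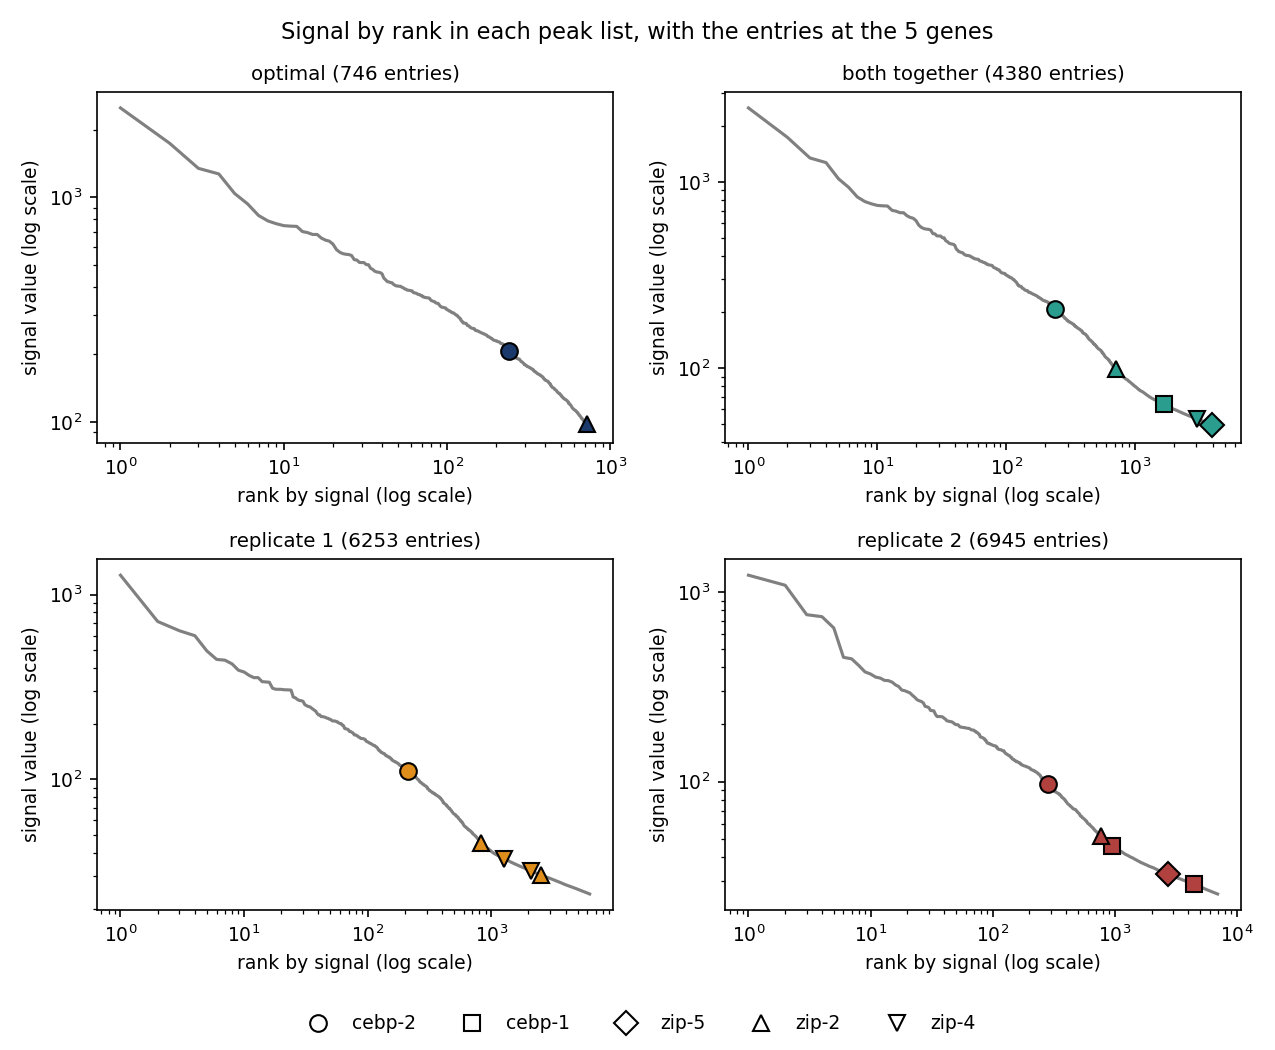
Signal value (y axis, log scale) against rank by signal (x axis, log scale) in each of the 4 lists, with the entries in the promoter window or body of the 5 genes as symbols. In the list called on both together the symbols fall from cebp-2 at 207.6 through zip-2 at 98.3, cebp-1 at 63.8 and zip-4 at 53.2 to zip-5 at 49.6.

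The encoded proteins, translated from the longest annotated coding sequences, are 100 residues long for CEBP-2, 319 for CEBP-1, 318 for ZIP-4, 308 for ZIP-2 and 216 for ZIP-5. CEBP-1 and ZIP-4 were identical at 58.4% of 332 aligned positions. The other 9 pairs were identical at 7.69% to 20.4%. Gaps count as positions here, and the alignments of the 100 residues of CEBP-2 held 216 to 325 positions. Its low shares are therefore in part set by its length. In the best local alignment ZIP-5 matched CEBP-1 at 34.0% of 50 positions, ZIP-2 at 28.6% of 63, CEBP-2 at 27.0% of 74 and ZIP-4 at 23.7% of 135. These lengths differ, and the alignment scores gave another order, 74 for CEBP-2 and for ZIP-4, 64 for ZIP-2 and 63 for CEBP-1. CEBP-2 scored higher with ZIP-2, at 110, with ZIP-4, at 103, and with CEBP-1, at 83, than with ZIP-5. The genes of the most alike pair, cebp-1 and zip-4, were both without an optimal peak, and each had its promoter entry in a different replicate. The zip-5 gene had no optimal peak either. Of all protein-coding genes, only 3.32% had an optimal promoter summit and 0.886% an optimal body summit. The short CEBP-2 protein is the one whose gene had the strongest peak among the genes described. That peak was in view when these genes were chosen. Whether protein length or likeness goes with the peaks was therefore not tested.

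In the wider bZIP list, 30 of 31 names matched the annotation, and cebp-2 was the 1 gene (3.33%) with an optimal summit in its promoter window, against 3.32% of all genes. The list called on both together gave 6 of the 30 such a summit (20.0%, against 10.8% of all genes), replicate 1 gave 7 (23.3%, against 12.6%) and replicate 2 gave 5 (16.7%, against 13.6%). Only cebp-2 and atf-6, the gene of an endoplasmic reticulum stress factor, had overlapping promoter peaks in both replicates, 2 of 30 against 7.18% of all genes. At atf-6 the signal was 75.7 in both together, 27.5 in replicate 1 and 42.9 in replicate 2, and the replicate summits were 69 bp apart. A promoter summit in any list was found for 10 of the 30, against 19.0% of all genes. Of the remaining 8, 5 had it in replicate 1 but not in replicate 2, namely atf-2, maf-1, xbp-1, zip-4 and zip-8, and 3 had it in replicate 2 but not in replicate 1, namely cebp-1, crh-1 and jun-1. In the body, zip-2 alone had an optimal summit (0.886% of all genes had one), and zip-2, zip-6 and zip-7 had overlapping peaks in both replicates, 3 of 30 against 3.74% of all genes. In all, 21 of the 30 had a summit in window or body in some list, against 32.5% of all genes, and 9 had none, among them atf-4, skn-1, the oxidative stress factor, and ces-2. A longer gene has more room for a body summit, and the shares were not matched for length. At crh-1 a body summit lay 36192 bp from the start, whereas the median protein-coding gene is 2027 bp long. As the relaxed lists are mostly weak entries and the list was chosen with earlier results known, nothing is read from these shares.

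**Figure D4:**
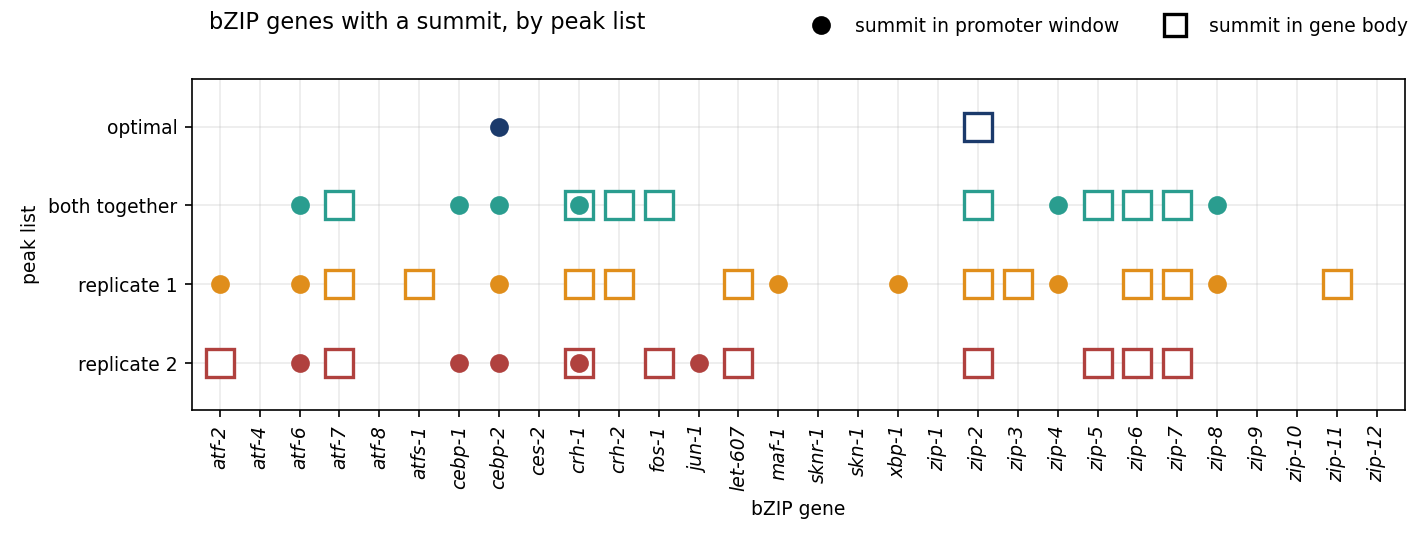
The 30 genes of the bZIP list drawn up by name (x axis) against the 4 peak lists (y axis). A filled circle is a summit in the promoter window and an open square is one in the gene body. The optimal row holds 1 circle, at cebp-2, and 1 square, at zip-2, while the relaxed lists mark 21 of the genes.

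Genes of the pathways in which these factors act were read from lists chosen with earlier results of these data known. Of 14 genes of ZIP-2 surveillance and mitochondrial stress, 2 (14.3%) had an optimal promoter summit, against 3.32% of all genes. At hsp-60, the mitochondrial chaperonin, it lay 607 bp upstream with a signal of 157.3, and of 70.1 in replicate 1 and 82.3 in replicate 2. At jmjc-1, a gene for a jumonji-domain protein, it lay 176 bp upstream with a signal of 167.8, and of 96.7 in replicate 1 and 72.0 in replicate 2. Both peaks were weaker than that of cebp-2 and both fell in the window of a second gene as well, Y22D7AL.10 and T28F2.2. A summit in window or body in at least 1 list was found for 8 of the 14, against 32.5% of all genes. The other 6 had none in any list, namely the ZIP-2 target irg-1, irg-2, haf-1, met-2, pals-5 and ifg-1.

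Of 15 genes of the DLK-1 axon pathway and its JNK-like branch, 1 (6.67%) had an optimal promoter summit, against 3.32% of all genes. This was kgb-1, a JNK-like kinase gene, where the summit lay 648 bp upstream with a signal of 401.4 at rank 52, and of 237.3 in replicate 1 and 167.8 in replicate 2. It was stronger than the cebp-2 peak in all 4 lists, and T07A9.12 shares the window. Of 6 genes of the p38 immune pathway, 0 had an optimal promoter summit, against the same 3.32%, and tir-1 had one in both together and in replicate 1. These lists are short, and with members picked in view of the data nothing is read from their shares.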

How the data were processed

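The measurement was ChIP-seq of ZIP-5-eGFP with an anti-GFP antibody in 2 biological replicates of 1 group. Per the labels and the file listings deposited with the samples, the authors called 1 relaxed peak list per replicate and 1 on both alignments together, each with a control, and derived the optimal set from these 3 by the irreproducible discovery rate (IDR). The lists are in build ce11. Which aligner and peak caller were run, with which settings and IDR threshold, is not given in the sources used here. The authors' signal score per peak has no stated scale and was ranked only within a list, and the deposited −log10 q-value was used as given. No list carries read counts, so the depth is unknown, and no share of reads or counting interval could be given. The ce10 lists were not used, because the annotation at hand was of build WBcel235 (ce11 coordinates), and every list ended within its chromosomes.

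Summits were placed against the Ensembl 115 annotation and sequences were read from the RefSeq copy of WBcel235, with Python 3.11.15, pandas 2.3.3 and Biopython 1.88. The window functions were tested on simulated data. Proteins were translated from the longest annotated coding sequence and aligned with BLOSUM62. The 5 genes and all gene lists and words were chosen with earlier results of these data known, so nothing was tested, and shares over all 19973 nuclear protein-coding genes are given for comparison. Genes named were the members, genes whose windows or bodies hold their summits, the neighbour on each side, fixed-list genes with an optimal promoter summit, bZIP genes with one in any list, and the 5 genes nearest to cebp-2 in replicate signal. Other genes of the fixed lists (atf-4, ces-2, skn-1, zip-6, zip-7, tir-1 and the surveillance genes without a summit) were named outside this rule, after their values were seen. Alternatives changed the window, the start, the hit rule, the threshold, the overlap and the replicates used.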

Additional observations from a re-analysis of the deposited data

How the results depend on the processing

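With the same windows placed on the start of any annotated transcript, 2 of the 5 genes and 2 of the 30 bZIP genes had an optimal promoter summit (cebp-2 and zip-2) in place of 1. In the other 6 alternatives (500 or 2000 bp upstream, at least 1 bp of the peak, the stronger 50% of the set, and the strongest 746 entries without replicate 1 or without replicate 2) both counts were 1, cebp-2. The share of all genes was 1.83% in the stronger 50% in place of 3.32%, and 2.67% to 4.17% otherwise. The body count was 0 in the stronger 50%, and 0 without replicate 1 as without replicate 2, since zip-2 ranks below those limits. The share of entries weaker than the cebp-2 peak, 67.8% in the optimal set, was 95.9% without replicate 1, 96.6% without replicate 2 and 94.5% within both together, which are longer lists with weak entries. The matching promoter peak of cebp-2 held at 50% overlap and at summits within 100 bp. No paired analysis was possible because there is 1 group.

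The limits are those of the lists. With 2 replicates, an unknown depth, an unstated signal scale and no untagged immunoprecipitation analysed here, weak entries cannot be told from background, and a summit does not say which of the neighbouring genes, if any, ZIP-5 acts on.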
